A study of Mus musculus with 10 samples.

Results

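The BCL-2 family decides at the mitochondrion whether a stressed cell lives or dies, and 10 of its genes were followed here through the culture of mouse spermatogonial stem cells. They were the rows of the expression matrix named Bcl2, Bcl2l1, Mcl1, Bax, Bak1, Bcl2l11, Bbc3, Pmaip1, Bid and Bad, 10 of 21969 genes. The rule went by gene name, but it was set with earlier results of these data known. The libraries were RNA-seq of DBA/2 mouse cells. Week 0 was adult testis cells enriched with magnetic beads carrying an antibody to the surface protein CD9, and weeks 1, 2 and 3 were such cells after that time in culture. GS cells were spermatogonial stem cell cultures that had already been established. Per the labels, the medium held 15 ng/ml rat GDNF, 10 ng/ml human FGF2 and 1% fetal bovine serum. Each of the 5 groups had 2 libraries, 10 in all. The labels do not say whether the 2 came from separate mice or cultures, so any p-value reflects no more than how far these libraries differed, a spread that could be technical.

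In this family the pro-survival proteins hold the pore-forming effectors BAX and BAK in check. The BH3-only proteins sense damage or lost growth factor signals and either block the pro-survival proteins or engage the effectors directly. Once BAX or BAK opens the outer mitochondrial membrane, cytochrome c escapes, joins APAF1 and activates caspases. In the mouse testis this route removes surplus germ cells, and GDNF is among the signals that keep spermatogonial stem cells alive.

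Values are the authors' normalized FPKM, which scales fragments by transcript length and library depth, so levels of different genes can be set side by side per length. Steps in the low values put the depth at 10.35 to 21.06 M reads per library, by which a transcript of 2200 nucleotides at FPKM 1 had 20.7 to 42.1 reads, depending on the library. Between the libraries of each group Pearson r was 0.991 to 0.996 across genes, which are not independent replicates. The summed FPKM of a library was lowest in a week 2 library (579697) and highest in a week 0 library (860429). Rescaling to a common sum moved the median log2 fold change of all genes to 0.08 for week 1 against week 0, where it was -0.14 as deposited, and to 0.17 for GS cells against week 0, where it was -0.21. All 18 genes listed for undifferentiated spermatogonia, which include the germ cell genes Ddx4 and Dazl, were above 0 in every library. Their summed level was 416 to 430 FPKM for week 0, 776 and 786 for week 1, and 1339 to 1493 in the later groups. Ddx4 and Dazl were the highest of them at week 0, with 199 ± 19.8 and 112 ± 6.81 FPKM (SD, n = 2 each). At week 1 against week 0, 14 of the 18 rose and 2 fell, Ddx4 and Tspan8, beside 36.3% and 44% of all genes. The 12 spermatid markers summed to 27494 and 29413 FPKM for week 0, 208 and 196 for week 1, and 7.0 to 11.8 later, when 1 to 8 of them were at 0. The 13 markers of meiotic spermatocytes summed to 212 to 465 FPKM in culture, against 5819 and 5456 at week 0. Ldhc was the largest part of that week 0 sum, at 3358 ± 160 FPKM (SD, n = 2). Sycp1 averaged 58.5 FPKM at week 0 and 78.8 at week 3, and Sycp3 92.6 and 94.7. The 14 fibroblast and matrix markers summed to 1132 and 1320 FPKM for week 0, 8888 and 8791 for week 1, and 427 to 951 later. Markers of several cell types were thus present beside those of spermatogonia, above all at weeks 0 and 1. In such bulk samples fewer cells of a type and less RNA per cell cannot be told apart.

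Bax held a larger share of the summed FPKM of the family in the cultured libraries than at week 0. Pro-survival genes held 48.4% and 46.1% of the summed FPKM of the 10 genes for week 0, 24.6% and 25.0% for week 1, 17.9% and 18.4% for week 2, 19.3% and 19.5% for week 3, and 22.6% and 25.3% for GS cells. Bax alone held between 52.8% and 64.6% in the 8 cultured libraries, against 19.2% and 25.5% at week 0. The week 0 libraries stood apart from all others in both shares, and the other groups differed by much less. The summed level of the 10 genes was 467 to 711 FPKM in culture, against 398 and 431 FPKM at week 0. Shares of FPKM depend on the transcript length taken for each gene, which the sources used here do not give. Annotated coding transcripts span 222 to 1100 nucleotides for Bax and 858 to 3418 for Mcl1. These shares are descriptions and were not tested. Spermatid markers summed to 27494 and 29413 FPKM at week 0 and to 208 and 196 at week 1. The part of cell make-up in the shares was not tested.

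**Figure D1:**
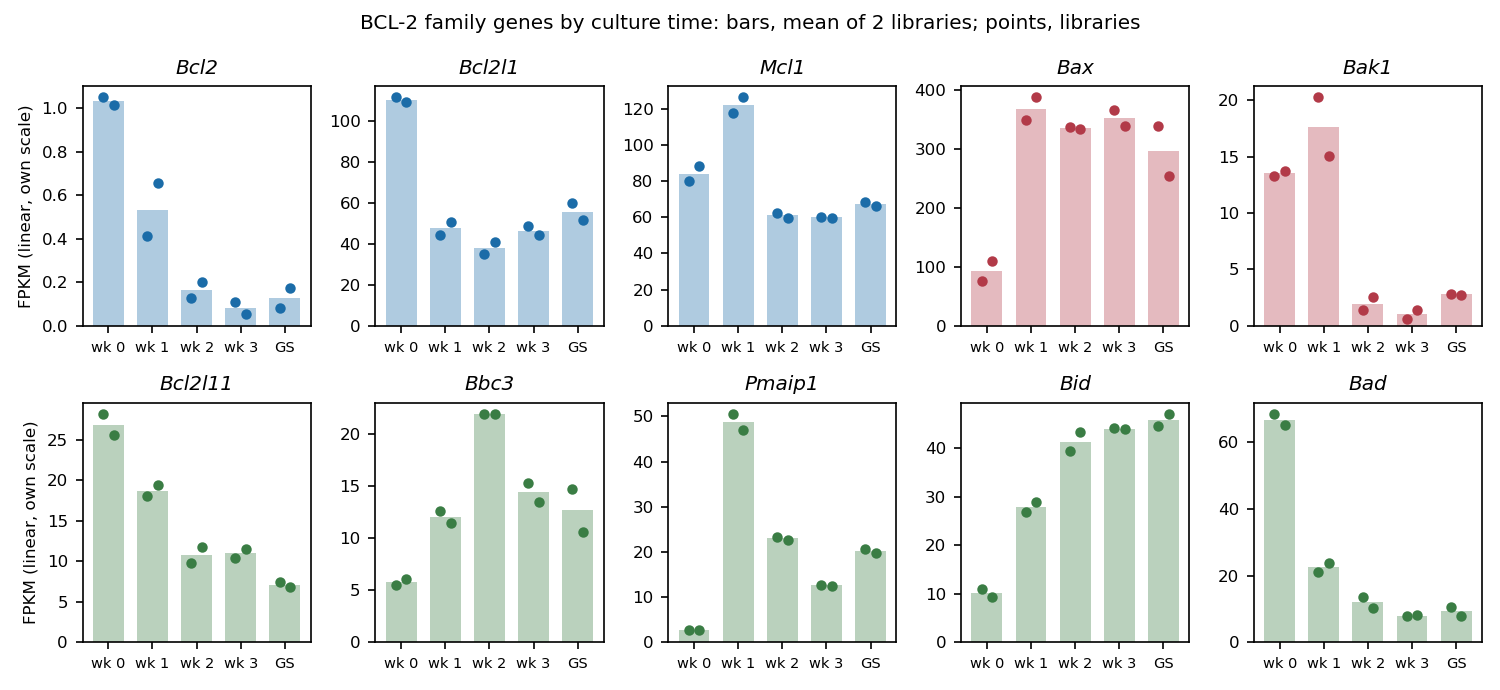
FPKM (vertical axis, linear and scaled for each gene) of the 10 genes at weeks 0 to 3 and in GS cells (horizontal axis). Bars are the mean of 2 libraries and points the libraries, in blue for pro-survival genes, red for effectors and green for BH3-only genes. Bax, Bbc3, Pmaip1 and Bid lie above week 0 in all 8 cultured libraries, and Bcl2, Bcl2l1, Bcl2l11 and Bad below it in all 8.

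**Figure D2:**
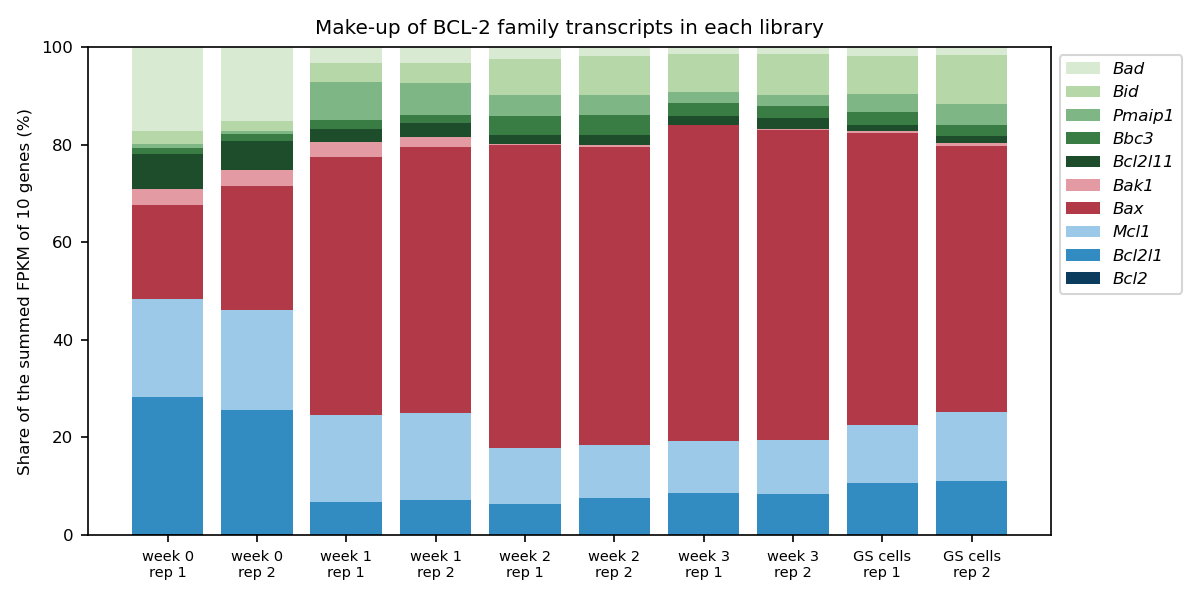
Share of the summed FPKM of the 10 genes (vertical axis, percent) held by each gene in each of the 10 libraries. Bax, in red, takes at least 52.8% in every cultured library, against 19.2% and 25.5% at week 0, while Bcl2l1 and Bad take their largest shares at week 0.

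Of the pro-survival genes, Mcl1 and Bcl2l1 carried nearly all of the signal. Mcl1 encodes a short-lived pro-survival protein (chromosome 3, 95658788 to 95663176, plus strand, GRCm38). Its level was 79.8 and 88.2 FPKM for week 0, 117 and 126 for week 1, 62.2 and 59.8 for week 2, 60.3 and 59.7 for week 3, and 68.2 and 66.4 for GS cells. Both week 1 libraries were above all others, and no library from week 2 on reached week 0. By limma with Benjamini-Hochberg adjustment over all genes, Mcl1 rose at week 1 against week 0 (log2 fold change 0.53, SE 0.076, adjusted p = 0.000218) and fell at week 2 against week 1 (-0.98, SE 0.076, adjusted p = 2.09e-05). Fibroblast and matrix markers were highest at week 1 as well, and their part in this peak was not tested. GS cells were lower in Mcl1 than week 0 by the deposited scaling (-0.31, adjusted p = 0.00455), but with a common FPKM sum or quantile normalization the sign turned and the call was lost (0.17 and 0.17, adjusted p = 0.0899 and 0.0742).

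Bcl2l1 encodes BCL-XL (chromosome 2, 152780668 to 152831728, minus strand), and a gene total does not separate it from the short, death-promoting splice form. The gene was at 112 and 109.5 FPKM for week 0, 44.7 and 50.8 for week 1, 34.9 and 41.0 for week 2, 48.8 and 44.4 for week 3, and 60.0 and 51.5 for GS cells. Every cultured library lay below both week 0 libraries. Bcl2l1 fell at week 1 against week 0 (limma log2 fold change -1.20, SE 0.11, adjusted p = 1.68e-05) and was lower in GS cells than at week 0 (-0.98, adjusted p = 6.04e-05). Spermatid markers and the sum of spermatocyte markers were highest at week 0 too, but the spermatocyte markers Sycp1 and Sycp3 had their highest means at week 3. The part of these markers in the level of Bcl2l1 was not tested. The further step at week 2 against week 1 was small (-0.33, adjusted p = 0.0406) and lost its call in 9 of 19 alternatives. It was lost with the replicate block (adjusted p = 0.057), with a common FPKM sum (-0.03, adjusted p = 0.873), and without week 1 replicate 2 (-0.23, adjusted p = 0.193), week 2 replicate 1 (-0.21, adjusted p = 0.238) or either week 0 library (adjusted p = 0.0504 each). GS cells did not pass the test against week 3 (0.25, SE 0.11, adjusted p = 0.16).

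Bcl2, the founding gene of the family (chromosome 1, 106538178 to 106714274, minus strand), was the lowest of the 10 in every group. It was at 1.05 and 1.01 FPKM for week 0, 0.411 and 0.656 for week 1, 0.129 and 0.202 for week 2, 0.108 and 0.053 for week 3, and 0.0814 and 0.175 for GS cells. On its longest transcript of 7191 nucleotides these values stand for about 7.0 to 23 reads from week 2 on, against 75.9 and 89.5 at week 0. The mean in GS cells was 0.124 times that of week 0, a ratio that the log2(FPKM + 1) scale shrinks (-0.85, limma adjusted p = 6.63e-05). Bcl2 passed the filter on low values, FPKM 1 in at least 2 libraries, only through week 0, so its calls against that group follow in part from the filter and it was not tested without either week 0 library. Under quantile normalization its sign turned at week 1 against week 0 (0.29, adjusted p = 0.0346) and in GS cells against week 0 (0.05, adjusted p = 0.678). The fall at week 2 against week 1 (-0.39, adjusted p = 0.011) lost its call without week 1 replicate 2 (-0.28, adjusted p = 0.0566) or week 2 replicate 1 (-0.35, adjusted p = 0.0702), and under quantile normalization (-0.19, adjusted p = 0.155).

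The effectors parted ways in culture. Bax, whose product forms pores in the outer mitochondrial membrane (chromosome 7, 45461697 to 45466898, minus strand), was at 76.4 and 109.8 FPKM for week 0, 349 and 388 for week 1, 337 and 334 for week 2, 366 and 338 for week 3, and 339.6 and 254 for GS cells. All cultured libraries were above both week 0 libraries, and the cultured libraries lay between 254 and 388 FPKM. Spermatid markers and the sum of spermatocyte markers were highest at week 0, where Bax was lowest, but Sycp1 and Sycp3 had their highest means at week 3. The part of these markers in the level of Bax was not tested. The mean at week 1 was 3.95 times that of week 0 and the mean in GS cells 3.19 times (limma log2 fold changes 1.99 and 1.67, SE 0.18, adjusted p = 1.19e-05 and 3.69e-05). No test between neighbouring cultured groups was passed, with estimates of -0.13, 0.07 and -0.26 and SE 0.18, so changes of the size of that error were not detectable. The first of these turned positive when libraries were rescaled to a common sum (0.17) or quantile normalized (0.30). Gm45808, an annotated gene on the same strand that overlaps Bax, was listed at 0 to 1.35 FPKM in the 10 libraries.

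The promoter window of Bax is shown because Bax is the gene that took the largest share of the family in culture. It covers 250 bases before to 50 bases after the start of the RefSeq gene (GRCm38.p6, chr7:45466849-45467148, minus strand, written along the gene), and capitals mark CACGTG, the palindromic E-box.
Bax: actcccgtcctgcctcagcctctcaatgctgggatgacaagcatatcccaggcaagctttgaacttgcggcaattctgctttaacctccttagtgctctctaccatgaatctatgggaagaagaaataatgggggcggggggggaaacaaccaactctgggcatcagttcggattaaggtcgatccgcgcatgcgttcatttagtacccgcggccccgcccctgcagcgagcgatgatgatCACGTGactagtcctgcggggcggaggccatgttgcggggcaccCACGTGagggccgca
CACGTG stood 2 times in this window, at -9 and 36 from the gene start, and 7.15% of 32851 windows of that length held it on either strand. A p53 decamer half-site, searched on both strands, also stood 1 time in the Bax window and in 8.36% of all windows. The motifs searched did not overlap each other there. A match describes the letters only.

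Bak1, the other effector (chromosome 17, 27019810 to 27029009, minus strand), was at 13.3 and 13.8 FPKM for week 0, 20.2 and 15.1 for week 1, 1.37 and 2.57 for week 2, 0.62 and 1.41 for week 3, and 2.80 and 2.78 for GS cells. Weeks 0 and 1 were high and the later groups low, with no overlap between them. Week 1 did not pass the test against week 0 (limma log2 fold change 0.35, SE 0.25, adjusted p = 0.236), except under quantile normalization (0.83, adjusted p = 0.0138). Bak1 fell at week 2 against week 1 (-2.67, adjusted p = 6.20e-05), where the mean was 0.112 times that of week 1. GS cells were higher than week 3 (0.94, adjusted p = 0.0327), a call that was lost with no filter (adjusted p = 0.0503) and without week 3 replicate 1 (0.65, adjusted p = 0.164) or either GS library (adjusted p = 0.121 and 0.111). All 14 fibroblast and matrix markers fell at week 2 as Bak1 did. Their sums were 1132 and 1320 FPKM for week 0, 8888 and 8791 for week 1, and 908 and 951 for week 2. At week 3 the library with the lower Bak1 level held the lower sum, 427 FPKM against 860 in the other. Smooth muscle and myoid markers summed to 1071 and 1398 FPKM for week 0, 1129 and 1068 for week 1, and 32.2 to 92.6 later. At week 1 against week 0, however, 4 of these 6 fell and 1 rose (median -1.46), beside 44% and 36.3% of all genes. The 1 that rose was Tagln, at 167 ± 32.8 FPKM for week 0 and 662 ± 31.4 for week 1 (SD, n = 2 each). The part of either list in the level of Bak1 was not tested. Ggnbp1, on the opposite strand across Bak1, was at 4.04 to 10.9 FPKM in culture, against 898 ± 33.6 FPKM at week 0 (SD, n = 2), and its part in the level of Bak1 was not tested. The libraries mark strand, but the sources used here do not say whether counting used it.

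Among the BH3-only genes, Pmaip1, Bid and Bbc3 were higher in culture and Bad and Bcl2l11 lower. Pmaip1 encodes NOXA, which neutralizes MCL1 and is a textbook p53 target (chromosome 18, 66458533 to 66465565, plus strand). It was at 2.65 and 2.81 FPKM for week 0, 50.5 and 46.9 for week 1, 23.4 and 22.7 for week 2, 12.7 and 12.5 for week 3, and 20.6 and 19.9 for GS cells. No groups overlapped, and replicates differed by far less than neighbouring groups. Pmaip1 had the largest rise of the 10 genes at week 1, to 17.8 times the week 0 mean (limma log2 fold change 3.74, SE 0.091, adjusted p = 3.96e-09). It fell at week 2 against week 1 (-1.05, adjusted p = 3.97e-05), fell again at week 3 against week 2 (-0.82, adjusted p = 0.00091) and was higher in GS cells than at week 3 (0.64, adjusted p = 0.0026). These 4 calls held in every alternative run, and under quantile normalization the rise at week 1 was 4.65. Its peak fell at the time when fibroblast and matrix markers were highest, and their part in it was not tested.

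Bid encodes a protein that caspase-8 cuts into an active form, which links death receptors to mitochondria (chromosome 6, 120891930 to 120916853, minus strand). Its level was 11 and 9.31 FPKM for week 0, 26.7 and 28.9 for week 1, 39.4 and 43.2 for week 2, 44 and 43.9 for week 3, and 44.5 and 47.0 for GS cells. The rise was stepwise over the first 2 weeks and the later groups lay close together. The summed markers of undifferentiated spermatogonia also rose over the first 2 weeks, though Ddx4 and Tspan8 fell at week 1. The part of these markers in the level of Bid was not tested. Week 1 exceeded week 0 (limma log2 fold change 1.37, adjusted p = 2.95e-06) and week 2 exceeded week 1 (0.55, adjusted p = 0.00198), in every alternative run, while week 3 against week 2 and GS cells against week 3 gave 0.09 and 0.06 (SE 0.10, adjusted p = 0.598 and 0.76). GS cells stood at 4.51 times the week 0 mean (2.07, adjusted p = 2.22e-07). Bcl2l13, on the opposite strand across Bid, was at 24.7 ± 6.34 FPKM for week 0, 14.7 ± 7.26 for week 1 and 29.0 to 32.1 FPKM in the means of later groups (n = 2 each), and its part in the level of Bid was not tested. Quantile normalization gave larger changes against week 0 for Bid, 2.02 at week 1 and 2.71 in GS cells.

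Bbc3 encodes PUMA, which binds all pro-survival members and is induced by p53 and FOXO factors (chromosome 7, 16308393 to 16318205, plus strand). It was at 5.55 and 6.04 FPKM for week 0, 12.6 and 11.4 for week 1, 21.9 and 21.9 for week 2, 15.3 and 13.4 for week 3, and 14.7 and 10.6 for GS cells. Both week 2 libraries stood above all others, and the GS libraries spanned week 1 and overlapped week 3. Spermatid markers were highest at week 0, where Bbc3 was lowest, and their part in its level was not tested. Bbc3 rose at week 1 against week 0 (limma log2 fold change 0.94, SE 0.15, adjusted p = 0.000523) and at week 2 against week 1 (0.81, adjusted p = 0.00242). Its fall at week 3 against week 2 (-0.58, adjusted p = 0.0326) lost the call without any 1 of the 4 libraries compared (-0.66 to -0.49, adjusted p = 0.0713 to 0.143). GS cells were higher than week 0 (0.99, adjusted p = 0.000363). The size of the difference depended on the scaling, with 1.41 for GS cells against week 0 at a common FPKM sum and 1.87 under quantile normalization (1.65 for week 1 against week 0).

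Bcl2l11 encodes BIM, which is held down by growth factor signals and raised by FOXO factors (chromosome 2, 128126038 to 128162547, plus strand). It was at 28.2 and 25.6 FPKM for week 0, 18.0 and 19.5 for week 1, 9.83 and 11.8 for week 2, 10.5 and 11.6 for week 3, and 7.46 and 6.83 for GS cells. Week 0 was highest and GS cells lowest, and weeks 2 and 3 overlapped. The change at week 1 against week 0 (limma log2 fold change -0.50, adjusted p = 0.00522) did not pass with a common FPKM sum (-0.25, adjusted p = 0.0845) or quantile normalization (-0.09, adjusted p = 0.49). The fall at week 2 against week 1 (-0.75, adjusted p = 0.00113) and the lower level of GS cells against week 0 (-1.78, adjusted p = 2.00e-06) were called in every alternative run. GS cells were lower than week 3 (-0.56, adjusted p = 0.0151), but not without week 3 replicate 2 (-0.49, adjusted p = 0.0761) or GS cells replicate 2 (-0.50, adjusted p = 0.0774).

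The promoter windows of Bbc3 and Bcl2l11 are shown because both genes are known FOXO targets and moved in opposite directions. Capitals mark TGTTTAC or its reverse complement, the core of the forkhead motif. The windows are RefSeq's on GRCm38.p6, plus strand, chr7:16310011-16310310 for Bbc3, as window 2 of 3, and chr2:128125788-128126087 for Bcl2l11, as window 1 of 2. These windows were picked for holding the motif, which windows 1 and 3 of Bbc3 and window 2 of Bcl2l11 did not hold.
Bbc3: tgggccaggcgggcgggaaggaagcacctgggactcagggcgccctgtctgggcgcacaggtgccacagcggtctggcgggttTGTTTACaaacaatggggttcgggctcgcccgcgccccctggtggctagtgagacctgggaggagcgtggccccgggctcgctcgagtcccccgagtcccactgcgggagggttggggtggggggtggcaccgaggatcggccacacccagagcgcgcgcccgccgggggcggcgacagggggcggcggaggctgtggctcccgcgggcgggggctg
Bcl2l11: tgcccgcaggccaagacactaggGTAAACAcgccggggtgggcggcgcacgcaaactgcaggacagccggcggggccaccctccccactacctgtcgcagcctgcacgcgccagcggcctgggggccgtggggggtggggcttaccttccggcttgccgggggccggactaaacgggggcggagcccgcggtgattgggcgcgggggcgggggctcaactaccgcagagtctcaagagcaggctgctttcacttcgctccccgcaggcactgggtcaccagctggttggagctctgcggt
The match began at -167 from the gene start in the Bbc3 window and at -227 in the Bcl2l11 window. On either strand, 3.65% of all windows held TGTTTAC. Of the 10 genes, 9 had a window, 15 windows in all, and TGTTTAC was found in windows of these 2 genes. CACGTG was found in windows of 2 genes, Bax and Bbc3, there in window 3, which overlaps window 2. GGGCGG, the GC box, was found in windows of 7 genes, and 35.7% of all windows held it. A gene had up to 3 windows, some of which overlap, so counts of genes cannot be set directly against shares of windows.

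Bad encodes a protein that growth factor signals keep phosphorylated and inactive (chromosome 19, 6941861 to 6951899, plus strand). It was at 68.5 and 65.1 FPKM for week 0, 21.1 and 23.8 for week 1, 13.7 and 10.4 for week 2, 7.77 and 8.17 for week 3, and 10.7 and 7.83 for GS cells. Week 0 was far above the rest, week 1 came next, and week 3 and GS cells overlapped. Bad fell at week 1 against week 0 (limma log2 fold change -1.53, SE 0.17, adjusted p = 3.74e-05) and at week 2 against week 1 (-0.86, adjusted p = 0.00278), in every alternative run. The step at week 3 against week 2 did not pass (-0.53, adjusted p = 0.0567), though it did with a common FPKM sum (-0.56, adjusted p = 0.0407) and without either GS library (adjusted p = 0.0399 and 0.0395). GS cells were at 0.139 times the week 0 mean (-2.74, adjusted p = 9.01e-07). Gpr137, on the opposite strand across Bad, was at 125 ± 4.04 FPKM for week 0, 16.7 ± 2.41 for week 1 and 5.52 ± 0.611 for GS cells (SD, n = 2 each), and spermatid markers had their high level at week 0 as well. The part of either in the level of Bad was not tested.

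Counts of family members called were read beside the share of all genes called. At week 1 against week 0, 5 rose (Mcl1, Bax, Bbc3, Pmaip1, Bid) and 4 fell (Bcl2, Bcl2l1, Bcl2l11, Bad) of 10, while 80.3% of 15671 genes tested were called, 36.3% higher and 44% lower. The median log2 fold change was 0.44 over the 10 genes and -0.14 over all genes. Of all genes called, 45.2% were higher there, and 59.8% under quantile normalization, which gave 7 members higher and 2 lower. At week 2 against week 1, 2 rose (Bbc3, Bid) and 7 fell of 10, while 55.6% of all genes were called, 28.2% higher and 27.4% lower, with medians of -0.57 for the 10 genes and 0.03 for all. Of the genes called, 50.7% were higher as deposited, 66.2% with a common FPKM sum and 61.8% under quantile normalization, and both gave 2 members higher and 6 lower. At week 3 against week 2, 2 of 10 were called, Bbc3 and Pmaip1, both lower, beside 21.3% of all genes, and 1 of 10 without any single library of these 2 weeks. For GS cells against week 3, 3 of 10 were called beside 22.5% of all genes, with Bak1 and Pmaip1 higher and Bcl2l11 lower, and 1 of 10 without GS cells replicate 2. In GS cells against week 0, 4 were higher (Bax, Bbc3, Pmaip1, Bid) and 6 lower, beside 80.6% of all genes called, 34.7% higher and 45.9% lower. The medians there were -0.58 for the 10 genes and -0.21 for all. Of the genes called, 43.0% were higher as deposited, 54.1% with a common FPKM sum and 61.1% under quantile normalization, with 4 members higher and 5 lower and 4 higher and 4 lower. These counts include Bcl2, which passed the filter only through week 0. Neighbouring comparisons share a group, so a rise and a fall on either side of it are not independent.

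**Figure D3:**
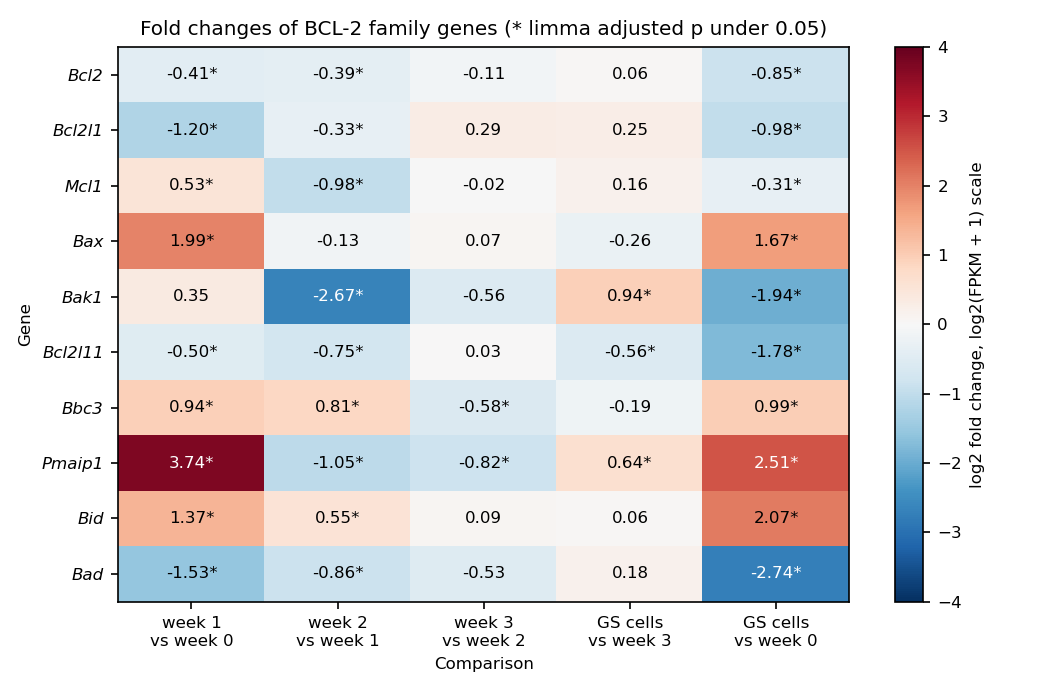
Log2 fold changes (colour and printed values, log2(FPKM + 1) scale) of the 10 genes (vertical axis) in 5 comparisons (horizontal axis), later group over earlier, with a star for a limma adjusted p under 0.05. Most of the change lies at week 1 against week 0 and at week 2 against week 1, led by Pmaip1 at 3.74 and Bak1 at -2.67, and the neighbouring later groups hold 2 and 3 stars.

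The order of the levels changed in the first week, and from then on only its first, second and last places were the same in every group. At week 0 the highest means were Bcl2l1 with 110.6 ± 1.5, Bax with 93.1 ± 23.6 and Mcl1 with 84.0 ± 5.94 FPKM (SD, n = 2 each), and the Bax libraries overlapped those of each of the other 2 genes, while both Bcl2l1 libraries lay above both Mcl1 libraries. Bad followed with 66.8 ± 2.41 FPKM and Bcl2l11 with 26.9 ± 1.86, both clear of their neighbours. From week 1 on Bax was first and Mcl1 second in every group, with no overlap between them. Next came Pmaip1 at week 1 (48.7 ± 2.57 FPKM) and Bid at week 2 (41.3 ± 2.72), each overlapping Bcl2l1. Between those weeks Bbc3 changed place most, to place 6 at week 2, against 9 at week 1, while Bid was in place 3 against 5 and Pmaip1 in 5 against 3. At week 3 (46.6 ± 3.14 FPKM) and in GS cells (55.8 ± 5.96) Bcl2l1 held that place. Bcl2 was last in all groups, and Bak1 was next to last from week 2 on.

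Across the 10 libraries the genes formed groups by their course, as a description over points that share their weeks and their cell make-up. On the log2 scale Bid and Bad ran opposite to each other (Pearson r = -0.978), as did Bcl2l1 and Bbc3 (-0.916), while Bcl2 and Bad (0.964) and Bcl2 and Bcl2l11 (0.916) ran together. Bax went with Bid and Pmaip1 (0.874 and 0.873), and against Bcl2l1, Bad and Bcl2 (-0.910, -0.818 and -0.786), while its r with Bak1 was -0.463. Mcl1 was closest to Bak1 (0.899). Bcl2 reached FPKM 1 in only 2 libraries, both of week 0, and had few reads from week 2 on. The r values of Bcl2, here and below, thus rest in large part on week 0. Over all genes tested, the courses most like those of the family members by Pearson r were Arf3 for Bid (0.998), Fst for Pmaip1 (0.995), Tulp4 for Bcl2 (0.994), Actr1a for Bad (0.993), Has1 for Mcl1 (0.993), Nabp1 for Bcl2l11 (0.992), Dnajc3 for Bak1 (0.99), H2-D1 for Bax (0.989, a gene with close copies whose level is uncertain), Des for Bcl2l1 (0.985) and Slc16a11 for Bbc3 (0.985). For each member, ranks 2 and 3 had r between 0.978 and 0.996.

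Of 15 other genes of the BCL-2 and BNIP families, 11 were tested, and Bcl2a1a, Bcl2a1b, Bcl2a1d and Bcl2l10 stayed below the filter. At week 1 against week 0, 4 rose and 5 fell, with a median of 0.02, while 36.3% of all genes were higher and 44% lower, so 9 of 11 called was near the 80.3% of all genes. With a common FPKM sum 4 rose and 3 fell (median 0.27), and under quantile normalization 6 rose and 2 fell (median 0.53). Bcl2l14, known from the testis, was at 1.98 ± 0.029 FPKM for week 1 and 265 ± 3.12 for week 0 (limma log2 fold change -6.48, adjusted p = 2.00e-09), and Bcl2l12 at 10.6 ± 0.515 and 78.4 ± 6.86 (-2.78, adjusted p = 4.87e-07). Bcl2l2, the pro-survival BCL-W that mouse spermatogenesis needs, rose at week 1 (23.3 ± 0.865 FPKM against 14.8 ± 0.246 at week 0, adjusted p = 0.0138) and fell at week 2 (9.15 ± 2.79, adjusted p = 0.000566), as the fibroblast and matrix markers did, whose part was not tested. In GS cells against week 0 the largest rises of this list were the BH3-only genes Bmf and Bik. Bmf, a sensor of lost anchorage, averaged 4.06 ± 1.79 FPKM for week 0, 11 ± 1.02 for week 1, 43.0 ± 2.29 for week 2 and 29.6 ± 0.0501 for GS cells, with log2 fold changes of 1.88 for week 2 against week 1 and 2.64 for GS cells against week 0 (adjusted p = 0.000197 and 7.02e-06). Bik was at 15.3 ± 0.937 FPKM in GS cells and 5.30 ± 1.53 at week 0 (1.39, adjusted p = 0.00284). Bok, an effector-like member, fell at week 3 against week 2 (4.14 ± 0.74 and 13.6 ± 0.382 FPKM, adjusted p = 0.000336) and was higher again in GS cells (14.6 ± 1.60, adjusted p = 0.000307). Bnip3, a mitophagy receptor, averaged 10.4 ± 1.75 FPKM for week 2, 34.7 ± 1.47 for week 3 and 14.2 ± 1.00 for GS cells, and passed both tests (adjusted p = 0.000516 and 0.00194).

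Downstream of the family, 19 genes of the apoptosome, the caspases and the mitochondrial death factors were all tested. At week 1 against week 0, 9 rose and 6 fell (median 0.26), and in GS cells against week 0, 8 were higher and 7 lower (median -0.11). In both comparisons 15 of 19 were called, a share near the 80.3% and 80.6% of all genes. Under quantile normalization week 1 gave 12 higher and 6 lower (median 0.71) and GS cells 10 higher and 7 lower (median 0.48), and with a common FPKM sum the counts were 10 and 6 at week 1 (median 0.50) and 10 and 7 in GS cells (median 0.36). Casp9, the caspase of the apoptosome, was at 9.13 ± 1.07 FPKM for week 1 and 9.65 ± 0.674 for week 0 (adjusted p = 0.605), and rose to 20.7 ± 2.90 for week 2 (limma log2 fold change against week 1 of 1.10, adjusted p = 0.000197). Its partner Apaf1 rose at week 1 (10.5 ± 1.63 FPKM against 6.13 ± 1.13, adjusted p = 0.0129) and GS cells did not pass the test against week 0 (7.09 ± 2.14 against 6.13 ± 1.13, adjusted p = 0.466). Aifm1, a mitochondrial flavoprotein, was at 63.3 ± 3.57 FPKM in GS cells and 12.1 ± 0.772 at week 0 (limma log2 fold change 2.29, adjusted p = 4.45e-08). Diablo, which relieves the inhibitors of caspases, and Vdac2, an outer-membrane channel that binds BAK, led the falls at week 1, with 96.8 ± 0.962 FPKM for week 1 and 399.5 ± 5.03 for week 0 for Diablo and 149.7 ± 11.2 and 537 ± 26.5 for Vdac2 (adjusted p = 1.48e-08 and 2.17e-06). Spermatid markers were highest at week 0 as both genes were, and their part was not tested.

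The death receptor list, the route that reaches mitochondria through Bid, had 8 of 10 genes tested, with Fasl and Tnfsf10 below the filter. At week 1 against week 0, 6 rose and 2 were not called (median 1.21), and 36.3% of all genes were higher in that comparison. In GS cells against week 0, 2 were higher and 6 not called (median -0.12), but 7 were higher under quantile normalization (median 0.82), and 34.7% of all genes were higher and 45.9% lower as deposited. Week 2 against week 1 gave 1 higher and 6 lower of 8 (median -1.21), beside 28.2% of all genes higher and 27.4% lower (median 0.03). Fas was at 19.9 ± 2.42 FPKM for week 1 and 0.212 ± 0.126 for week 0 (limma log2 fold change 4.11, adjusted p = 3.92e-08), and fell to 3.33 ± 0.514 for week 2 (-2.27, adjusted p = 9.71e-06). Casp8, which cuts BID, was at 1.58 ± 0.369 FPKM for week 2 and 12.1 ± 1.77 for week 1 (-2.34, adjusted p = 7.80e-06). Tnfrsf10b, the mouse TRAIL receptor, stayed higher in GS cells than at week 0 (14.9 ± 0.018 and 4.83 ± 0.337 FPKM, 1.45, adjusted p = 2.02e-06). Fas, Casp8 and Tnfrsf10b were each highest at week 1, as the fibroblast and matrix markers were, whose part was not tested.

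Upstream, 12 of 13 listed genes of p53 and known regulators of BH3-only genes were tested, Trp73 being below the filter. At week 1 against week 0, 9 of 12 rose and 2 fell (median 1.33), while 36.3% of all genes were higher and 44% lower (median -0.14). In GS cells against week 0, 7 were higher and 3 lower (median 1.29), beside 34.7% of all genes higher and 45.9% lower (median -0.21). Under quantile normalization the counts were 10 higher and 0 lower at week 1 (median 1.90) and 9 higher and 1 lower in GS cells (median 1.80), and with a common FPKM sum 9 and 2 (median 1.55) and 8 and 2 (median 1.76). Trp53 itself was at 69.0 ± 4.12 FPKM for week 1 and 24.6 ± 2.75 for week 0 (limma log2 fold change 1.45, adjusted p = 1.33e-06) and at 69.2 ± 1.08 for GS cells (1.46 over week 0, adjusted p = 1.31e-06). The p53 targets Cdkn1a, a cell cycle inhibitor, and Ccng1 (cyclin G1) led the rises at week 1, with 263 ± 5.57 FPKM for week 1 and 8.79 ± 0.094 for week 0 for Cdkn1a and 181 ± 11.4 and 5.18 ± 0.181 for Ccng1. Both fell at week 2 against week 1, to 63.3 ± 0.224 and 27.7 ± 0.513 FPKM (-2.04 and -2.66, adjusted p = 6.60e-06 and 3.43e-06). Mdm2, which degrades p53, was higher at week 1 (263 ± 11 against 139.8 ± 4.13 FPKM, adjusted p = 3.16e-06) and fell at week 2 against week 1 (-1.25, adjusted p = 3.90e-06). Cdkn1a, Ccng1 and Mdm2 were each highest at week 1, when the fibroblast and matrix markers summed to 8888 and 8791 FPKM, and the part of those markers was not tested. The value of Mdm2 in GS cells against week 0 was -0.36 as deposited but 0.13 with a common FPKM sum and 0.21 under quantile normalization, so no direction is given. Of the FOXO genes, Foxo1 was at 24.4 ± 3.13 FPKM in GS cells and 5.51 ± 0.62 at week 0 (1.96, adjusted p = 7.32e-07), and Foxo3 was higher at week 3 than at week 2 (70.8 ± 5.87 and 39.4 ± 1.30 FPKM, adjusted p = 0.000922) and lower in GS cells than at week 3 (37.8 ± 0.154, adjusted p = 0.00075).

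**Figure D4:**
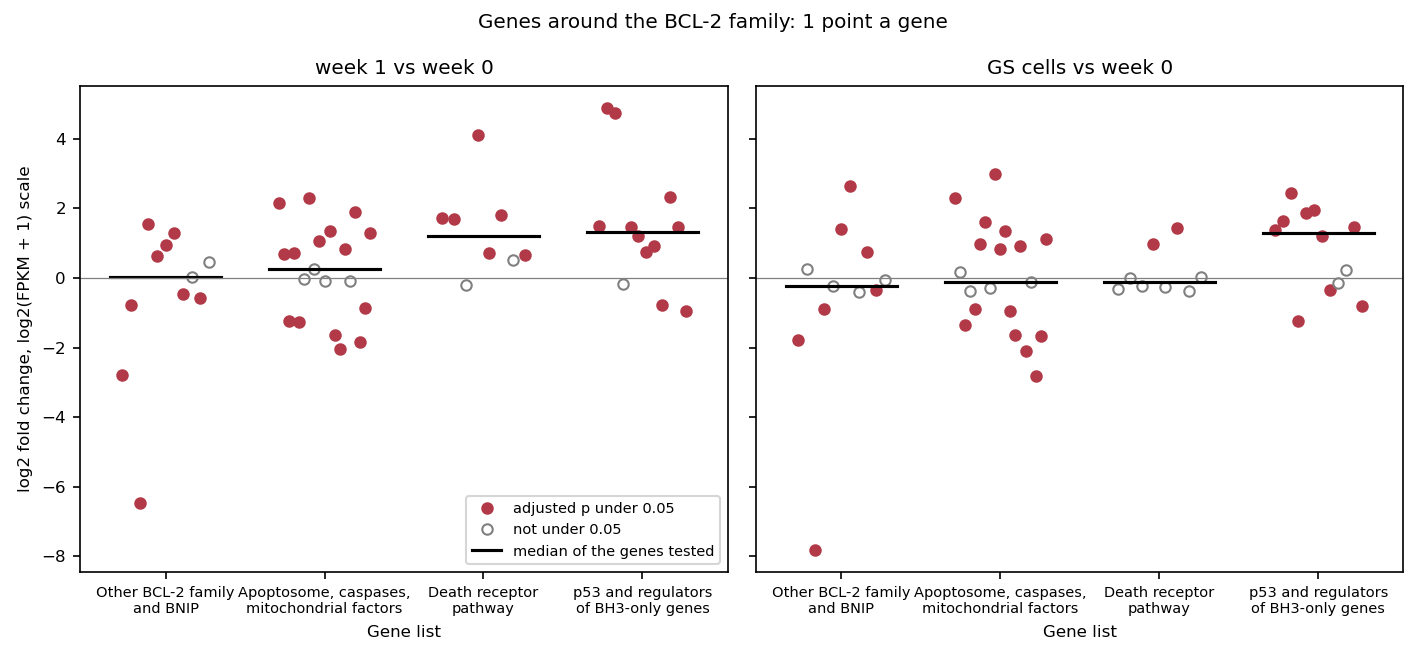
Log2 fold changes (vertical axis, log2(FPKM + 1) scale) of the genes tested in 4 lists around the BCL-2 family (horizontal axis), at week 1 against week 0 (left) and in GS cells against week 0 (right). Each point is a gene, filled where the limma adjusted p was under 0.05, and lines are medians. The death receptor list has a median of 1.21 at week 1 and -0.12 in GS cells (0.27 there with a common FPKM sum), and the list of p53 and regulators 1.33 and 1.29.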

How the data were processed

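RNA-seq of 10 libraries from DBA/2 mouse spermatogonial stem cell cultures was analysed from the matrix of normalized FPKM values that the authors deposited, in a column for each library. Per the submitters' processing notes, the genome build was mm10 and the tools included HISAT2 2.1.0, Cuffdiff, Cufflinks 2.2.1, cutadapt 1.16, bcl2fastq 2.17.1.14 and Bowtie2 2.3.4.1, with no roles stated. How values were normalized, which annotation was used and whether counting used strand was not given in the sources used here. FPKM carries no counts, so depth was read from steps of low values in 2218 genes with 1 annotated transcript of at least 1500 nucleotides (fragment length taken as 200). Between 96.9% and 100% of those values were whole within 0.15 of a read. Reads were not recovered for all genes, so no count model was run.

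Identifiers were matched to GENCODE M21 (GRCm38; 21951 of 21969), and 27 symbols turned into dates were restored. Where a symbol stood on more than 1 row (19 symbols), the lower identifier was used. The deposited values were moved to log2(FPKM + 1) and fitted with limma 3.58.1 in R 4.3.3, all 5 groups together, with an intensity trend. Of all genes, 15671 reached FPKM 1 in 2 libraries or more and were tested. Tests were two-sided, with Benjamini-Hochberg adjustment over all genes tested and a threshold of 0.05. Because of the pseudocount of 1, fold changes of low genes come out too small. Ratios of means are on the FPKM scale. The fit was tested on simulated data.

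The members and lists were chosen with earlier results of these data known. Named were all 10 members, up to 2 called genes in each direction per list and comparison, a few fixed genes (Trp53, Mdm2, Cdkn1a, Apaf1, Casp9, Bcl2l2), and the most alike gene of each member. Some genes that this rule names are not reported here. Sertoli markers summed to 743 to 754 FPKM for week 0, 291 to 293 for week 1 and 18.7 to 26.8 later. Leydig markers summed to 1584 to 1831 FPKM for week 0, 78.0 to 85.9 for week 1 and 2.87 to 10.1 later. Smooth muscle markers summed to 1071 to 1398 FPKM for week 0, 1068 to 1129 for week 1 and 32.2 to 92.6 later, with Tagln the only 1 called higher at week 1. Macrophage markers summed to 119 to 144 FPKM for week 0, 96.0 to 99.6 for week 1 and 31.6 to 118 later. Of 9 tested, 5 fell and 2 rose at week 1 against week 0, beside 44% and 36.3% of all genes. Lyz2 averaged 40.0 FPKM for week 0 and 77.6 for week 3, and Csf1r 13.3 and 0.358. Endothelial markers summed to 26.2 to 33.3 FPKM for week 0, 11.5 to 11.9 for week 1 and 4.64 to 9.53 later. Lymphocyte markers summed to 45.9 to 54.3 FPKM for week 0, 10.8 to 11.5 for week 1 and 1.10 to 4.86 later. Cd3d made most of the week 0 sum, with a mean of 45.6 FPKM there and 0 at week 1, while Cd3e averaged 0.351 and 8.07. Of 5 tested, 3 rose and 2 fell at week 1 against week 0, beside 36.3% and 44% of all genes. Alternatives were the pseudocount (0.1 or 0.5), the filter (none, or a mean of at least FPKM 5), a common FPKM sum, quantile normalization, no trend, the replicate block, only the 2 groups compared, and leaving out each library in turn. The context lists were also refitted under both scalings, an alternative chosen after seeing the data. With 1 library left in a group, that library is assumed to vary like the others.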

Additional observations from a re-analysis of the deposited data

How the results depend on the processing

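Of 932 alternative values for the 50 pairs of gene and comparison, 893 kept their direction and side of the threshold, 24 lost and 4 gained the call, and 11 turned sign. Leaving out 1 library gave 1573 to 3520 genes called at week 3 against week 2 (3339 with all libraries) and 1748 to 3702 for GS cells against week 3 (3526), with 1 to 3 family members in either comparison. Signs turned for Bcl2 at week 1 against week 0 (0.29) and in GS cells against week 0 (0.050), both under quantile normalization. They also turned for Bax at week 2 against week 1 and for Mcl1 in GS cells against week 0, with a common FPKM sum (0.17 and 0.17) and quantile normalization (0.30 and 0.17). Values near 0 turned when 1 library was left out. At week 3 against week 2 these were Bcl2l11 without week 2 replicate 1 or week 3 replicate 2 (range over libraries left out -0.088 to 0.15) and Mcl1 without week 2 replicate 1 (-0.051 to 0.0043), and for GS cells against week 3 Bbc3 without GS cells replicate 2 (-0.40 to 0.033) and Bad without GS cells replicate 1 (-0.022 to 0.39). Both scalings raise the median of all genes against week 0, and the cause of single changes was not tested. Replicate differences correlated at -0.0525 to 0.0458 between groups, so replicate numbers marked no shared shift across genes. This cannot exclude that equal numbers stand for a shared mouse, culture or day. With the replicate block, 12543, 8610, 3159, 3251 and 12617 genes were called in the 5 comparisons, and 9, 8, 2, 3 and 10 members. Bcl2 was not tested with a mean of at least FPKM 5, nor in fits without week 0. At 2 libraries a group and few reads, changes of Bcl2 among the later groups were not detectable.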
